A study of Mus musculus with 10 samples.

Results

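Cones are the photoreceptors of daylight and colour vision, and the genes described here are 10 that cones use for seeing and for choosing their visual pigment: the opsins Opn1sw and Opn1mw, the transducin subunits Gnat2 and Gngt2, the phosphodiesterase subunits Pde6c and Pde6h, the channel subunits Cnga3 and Cngb3, the arrestin Arr3 and the thyroid hormone receptor Thrb. They were chosen by name from the deposited table of occupancies around transcription start sites (TSS), ignoring case and the number that the table adds to repeated symbols. All 10 were found, in 13 of the 25152 entries of the table, which cover 20044 gene symbols. Gngt2, Pde6c and Thrb had more than 1 entry, and for these the entry whose 8 values summed highest stood for the gene.

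Whole mouse retina was profiled for H3K4me2 and H3K27me3 by ChIP-Seq at E17.5, PN1, PN7 and PN15, where E is the embryonic and PN the postnatal day. Each mark had 1 library at each stage, made from chromatin of at least 20 retinas, so no spread between animals was available, no test was made and no p-value is given. The study describes C57BL/6j mice for this time course and the Pde6b (rd1/rd1) mutant as its rod subtraction control, but the sample labels give Pde6b (rd1/rd1) as the strain of every library. In the sample titles rd1 appears only for the 30-day H3K4me2 library. The labels write E17 in the sample names and E17.5 in the protocol, and the catalogue numbers given for the 2 antibodies are exchanged between the labels and the study's methods. The 30-day rd1/rd1 library and the anti-GFP control library were not analysed here.

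H3K4me2 is a mark of active and poised promoters, and H3K27me3 is set by Polycomb repressive complex 2 and marks genes that are held silent. Cones are born before birth in the mouse, while rods are born mostly around and after it and come to outnumber cones by far. In a cone, light absorbed by an opsin activates transducin, transducin activates phosphodiesterase, and the fall in cGMP closes the cyclic nucleotide-gated channel, after which arrestin shuts off the pigment. Rods use the same cascade with their own paralogs. Because the whole retina was used, a value is a mean over all its cells, and fewer cells that carry a mark and less of the mark in each cell cannot be told apart.

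An occupancy here is the number of reads within 2.5 kb of a TSS relative to all mapped reads of the library, rounded by the authors to whole numbers. Every window has the same width, so levels can be set side by side between genes. Intervals are exact Poisson 95% intervals that treat an occupancy as a number of reads. No library had a gap in its whole numbers below 110, so that 1 read was worth an occupancy of 1.01 at most. The intervals are therefore about as wide as the counting error or wider, and they cover counting error only. A change is a difference in log2(occupancy + 1), which understates the change of low genes, and it is given relative to the median change of all symbols. That median was 0.13 for H3K4me2 and 0.00 for H3K27me3 from E17.5 to PN15. A gene is counted as higher or lower when its relative change is more than 2-fold. The 1053 entries of olfactory receptors, genes of another tissue, served as the background level. Their 95th percentile in stage order was 4, 8, 1 and 7 for H3K4me2 and 21, 22, 22.4 and 29 for H3K27me3. The background itself moved, since the median H3K27me3 of the olfactory receptors was 7 at E17.5 and 10 at PN15 and 20.4% of their 1047 symbols were more than 2-fold higher.

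Markers of other cell types moved over the same interval. From E17.5 to PN15 the summed H3K4me2 went from 76 to 476 over 5 rod markers, from 282 to 125 over 6 of ganglion cells, from 293 to 159 over 4 of horizontal cells, from 250 to 202 over 5 of amacrine cells, from 189 to 240 over 5 of bipolar cells and from 216 to 194 over 4 of Mueller glia. The summed H3K27me3 of the same lists went from 106 to 55, 1294 to 734, 909 to 647, 1525 to 855, 555 to 279 and 58 to 177. Some of these sums rest on 1 gene of the list. The highest glial marker had 136 of the 177 in H3K27me3 at PN15, the highest bipolar value went from 451 to 121 in H3K27me3 and from 80 to 154 in H3K4me2, and the amacrine median in H3K4me2 went from 54 to 23 while its highest value at PN15 was 104. Markers from outside the neural retina had H3K4me2 sums of 22 (lens), 92 (pigment epithelium), 13 (microglia) and 28 (blood and vessel) at E17.5 and 19, 102, 18 and 8 at PN15. In the libraries labelled H3K4me2 and H3K27me3 at PN15 the 5 rod markers summed to 476 and 55, and every marker of these 5 was above the olfactory receptor percentile in the first and none in the second. The part of these cell types in the results below was not tested.

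From E17.5 to PN15, H3K27me3 rose more than 2-fold at 5 of the 10 cone genes, namely Opn1sw, Opn1mw, Gngt2, Pde6c and Cnga3, and fell more than 2-fold at Thrb alone. With a pseudocount of 5 the rise was past 2-fold at 4 genes, without Opn1mw, and the fall at Thrb was not past 2-fold, as was also so with the mean over entries. Among all symbols, 10.1% were higher and 13.8% lower by the same rule. The median change of the cone genes was 0.97 on the log2 scale, and 8 of 10 were higher by any amount, as were 44.5% of all symbols. H3K4me2 passed 2-fold at fewer of these genes over the same interval, with 1 gene higher (Arr3) and 2 lower (Opn1sw and Cngb3) and a median change of -0.32. With a pseudocount of 5 the changes at Arr3 (0.66) and Cngb3 (-0.94) were within 2-fold. Of all symbols, 5.17% were higher and 12.8% lower in H3K4me2. Without the subtraction of the median, the cone genes gave the same counts and all symbols 6% higher and 9.24% lower. By any amount, 4 of the 10 cone genes were higher in H3K4me2, as were 56.4% of symbols.

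**Figure D1:**
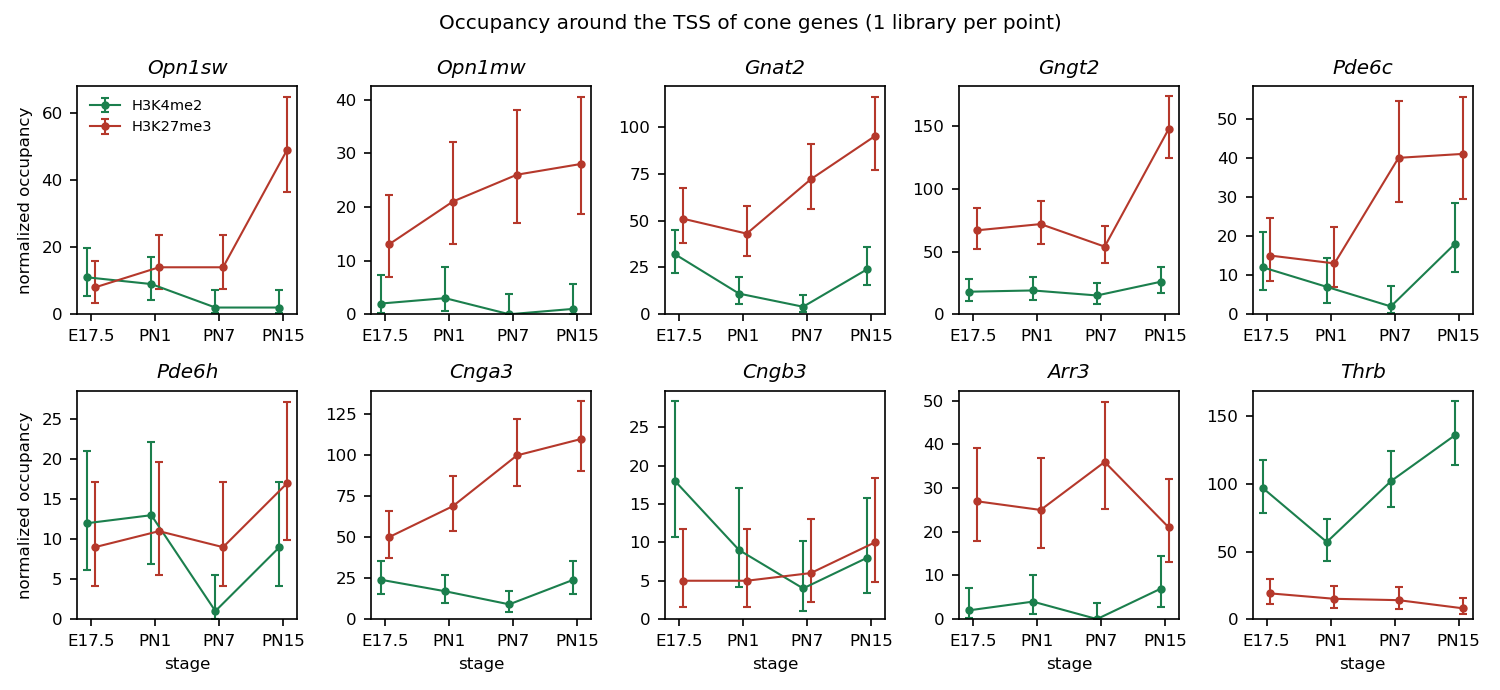
Normalized occupancy (y axis, its own linear scale in each panel) of H3K4me2 (green) and H3K27me3 (red) around the TSS of the 10 cone genes at E17.5, PN1, PN7 and PN15 (x axis), with 1 library per point and exact Poisson 95% counting intervals as bars. H3K27me3 is highest at PN15 in each panel except those of Arr3 and Thrb. Only the Thrb panel, drawn with its larger entry, shows H3K4me2 above H3K27me3 at all 4 stages.

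The opsins are the light-absorbing pigments of cones, with Opn1sw sensitive to short and Opn1mw to middle wavelengths. Opn1sw lies on chromosome 6 of mm9 (29326671 to 29338468, minus strand) and Opn1mw on chromosome X (71372803 to 71396099, plus strand). The 250 bases upstream of their RefSeq starts are shown because the homeodomain factors Crx and Otx2, which drive photoreceptor genes, bind cores of the form TAATCC and TAATCT. These cores were searched on both strands and are printed in capitals, as they are in the other promoters below. RefSeq promoters of the GRCm38.p6 assembly were placed on mm9 by exact match, which puts the sequences at chr6:29330514-29330763 (minus strand) and chrX:71372555-71372804 (plus strand).
Opn1sw: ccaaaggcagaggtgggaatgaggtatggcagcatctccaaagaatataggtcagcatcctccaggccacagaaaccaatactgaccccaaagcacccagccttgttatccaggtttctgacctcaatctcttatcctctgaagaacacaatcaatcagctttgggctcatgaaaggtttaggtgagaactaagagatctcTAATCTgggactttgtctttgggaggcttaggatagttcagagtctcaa
Opn1mw: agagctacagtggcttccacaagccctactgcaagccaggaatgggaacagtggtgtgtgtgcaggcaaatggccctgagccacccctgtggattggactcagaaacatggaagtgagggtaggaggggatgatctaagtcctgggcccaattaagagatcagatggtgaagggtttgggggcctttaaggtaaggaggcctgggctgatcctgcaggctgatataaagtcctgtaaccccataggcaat
The Opn1sw promoter held 1 TAATCT, beginning 49 bases before the start, and the Opn1mw promoter held neither core. Of the 32544 RefSeq promoters of this length, 12.9% held at least 1 of the 2 cores. Opn1sw also held 2 copies of AGGTCA, the core bound by many nuclear receptors, on opposite strands (14% of promoters held at least 1), and Opn1mw held TATAAA 28 bases before its start (12.3% of promoters). Neither opsin promoter contained a CpG, where the median promoter contained 6.

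H3K27me3 at Opn1sw started at 8 (interval 3.45 to 15.8), stood at 14 in both the PN1 and PN7 libraries and reached 49 (36.3 to 64.8) at PN15, the first value above the olfactory receptor percentile. The PN15 occupancy was 6.12-fold that of E17.5 (2.88 to 15), and most of the rise came after PN7, by 3.5-fold (1.9 to 6.86). Its rank moved from above 31% to above 88.2% of all symbols. H3K4me2 at Opn1sw ran the other way, with occupancies of 11, 9, 2 and 2 at the 4 stages. The PN15 occupancy was 0.182 of that at E17.5 (0.0196 to 0.833), a relative log2 change of -2.13, below that of all but 1.69% of symbols. Opn1sw was thus the cone gene with the largest change in each mark, upward in H3K27me3 and downward in H3K4me2.

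H3K27me3 at Opn1mw was 13, 21, 26 and 28 from E17.5 to PN15, a 2.15-fold difference between the ends (1.08 to 4.53). The call was lost with a pseudocount of 5 (0.87). Its log2 change of 1.05 compares with a median of 0.51 over the olfactory receptors. These occupancies stayed near the olfactory receptor level, above its 95th percentile at PN7 only. H3K4me2 at Opn1mw was 2, 3, 0 and 1, above only 4.3% of symbols at E17.5 and below the olfactory receptor percentile in all 4 libraries. The 0 at PN7 allows an occupancy of up to 3.69. The middle wavelength opsin therefore had no H3K4me2 that could be told from the background at this depth.

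Gnat2 encodes the α subunit of cone transducin and Gngt2 the γ subunit. Gnat2 lies on chromosome 3 (107895707 to 107904350, plus strand), and its RefSeq promoter at chr3:107895734-107895983 is shown because it holds the core within 20 bases of the start, read on the minus strand.
Gnat2: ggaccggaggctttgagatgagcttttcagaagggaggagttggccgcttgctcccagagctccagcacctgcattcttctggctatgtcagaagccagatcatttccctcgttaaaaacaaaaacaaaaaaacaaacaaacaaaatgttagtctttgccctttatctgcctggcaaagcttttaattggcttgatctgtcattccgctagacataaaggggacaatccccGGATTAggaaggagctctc
H3K27me3 at Gnat2 was 51, 43, 72 and 95 in stage order. The last is 1.86-fold higher at PN15 than at E17.5 (1.31 to 2.67), short of the 2-fold rule. H3K4me2 at Gnat2 was 32, 11, 4 and 24, so that it dipped at PN1 and PN7 and came back at PN15 to 0.75 of its E17.5 occupancy (0.423 to 1.31). The fall to PN1, a relative log2 change of -1.04, was among the lowest 0.943% of all symbols for that step.

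Gngt2 lies on chromosome 11 (95698530 to 95707048, plus strand), and a start of Abi3, which encodes an adaptor of actin regulation, lies 100 bases from a Gngt2 start on the opposite strand. Their windows are nearly the same, and the signal cannot be assigned to either gene. H3K27me3 at the representing Gngt2 entry was 67, 72, 54 and 148, and H3K4me2 was 18, 19, 15 and 26. The other Gngt2 entry gave 64, 75, 55 and 140 for H3K27me3 and 17, 17, 12 and 24 for H3K4me2, and Abi3 gave 65, 74, 55 and 143 for H3K27me3. The rise in H3K27me3 at this shared promoter was 2.21-fold over the whole course (1.64 to 2.99) and 2.74-fold from PN7 to PN15 (1.99 to 3.82). At PN15 it carried the most H3K27me3 of the cone genes, above 97.9% of symbols.

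Pde6c encodes the catalytic α' subunit of cone phosphodiesterase and Pde6h its inhibitory γ subunit. Pde6c lies on chromosome 19 (38207271 to 38258437, plus strand), and its 2 entries held the same values. H3K27me3 at Pde6c was 15 and 13 before PN7 and 40 and 41 from PN7 on. The step from PN1 to PN7 was 3.08-fold (1.61 to 6.27), larger than that of 98.1% of symbols. H3K4me2 at Pde6c was 12, 7, 2 and 18. Pde6h, on chromosome 6 (136903044 to 136917386, plus strand), had 9, 11, 9 and 17 for H3K27me3, below the olfactory receptor percentile at every stage, and 12, 13, 1 and 9 for H3K4me2. The 1.89-fold higher H3K27me3 of Pde6h at PN15 had an interval of 0.796 to 4.81, which includes no change.

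Cnga3 encodes the α and Cngb3 the β subunit of the cone cyclic nucleotide-gated channel. Cnga3 lies on chromosome 1 (37275181 to 37320229, plus strand) and Cngb3 on chromosome 4 (19207997 to 19437770, plus strand). H3K27me3 at Cnga3 was 50, 69, 100 and 110 in stage order, higher at each stage than at the one before, and 2.2-fold higher at PN15 than at E17.5 (1.56 to 3.14). H3K4me2 at Cnga3 was 24, 17, 9 and 24, the same at both ends. The partner subunit differed, since Cngb3 had only 5, 5, 6 and 10 for H3K27me3, the lowest of the cone genes at the first 3 stages and below the olfactory receptor percentile throughout. H3K4me2 at Cngb3 was 18, 9, 4 and 8, and the PN15 occupancy was 0.444 of that at E17.5 (0.167 to 1.07), an interval that includes no change, and the call was lost with a pseudocount of 5 (-0.94). The subunits of the channel thus differed in H3K27me3 by 110 against 10 at PN15, with intervals of 90.4 to 133 and 4.8 to 18.4 that do not overlap.

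Arr3 encodes cone arrestin, which ends the signal of the activated pigment, and lies on chromosome X (97800836 to 97813832, plus strand). Its RefSeq promoter at chrX:97800586-97800835 is shown because it held the most cores of the cone promoters, 3 copies of TAATCT beginning 116, 102 and 10 bases before the start.
Arr3: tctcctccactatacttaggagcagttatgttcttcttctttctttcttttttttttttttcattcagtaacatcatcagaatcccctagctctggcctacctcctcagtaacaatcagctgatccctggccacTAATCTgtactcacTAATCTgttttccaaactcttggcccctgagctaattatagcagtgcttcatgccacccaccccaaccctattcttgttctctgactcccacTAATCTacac
H3K27me3 at Arr3 was 27, 25, 36 and 21, and the PN15 occupancy was 0.778 of that at E17.5 (0.418 to 1.43). H3K4me2 at Arr3 was 2, 4, 0 and 7, never above the olfactory receptor percentile. The relative log2 change of 1.28 in H3K4me2 rests on occupancies of 2 and 7, a ratio of 3.5 with an interval of 0.666 to 34.5 that includes no change, and it was 0.66 with a pseudocount of 5. Of the 10 genes, only Arr3 and Thrb had less H3K27me3 at PN15 than at E17.5.

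Thrb encodes the β receptor of thyroid hormone, whose cone isoform is needed for middle wavelength opsin, and it spans chromosome 14 from 18493474 to 18870602 (plus strand) with several starts. The 2 RefSeq promoters, at chr14:18493224-18493473 and chr14:18813908-18814157, are shown because they differ in base composition.
Thrb, upstream start: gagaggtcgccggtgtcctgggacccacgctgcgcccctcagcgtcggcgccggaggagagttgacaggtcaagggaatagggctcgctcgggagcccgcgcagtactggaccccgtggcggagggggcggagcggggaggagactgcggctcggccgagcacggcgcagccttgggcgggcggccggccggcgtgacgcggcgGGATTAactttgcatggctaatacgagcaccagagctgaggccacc
Thrb, downstream start: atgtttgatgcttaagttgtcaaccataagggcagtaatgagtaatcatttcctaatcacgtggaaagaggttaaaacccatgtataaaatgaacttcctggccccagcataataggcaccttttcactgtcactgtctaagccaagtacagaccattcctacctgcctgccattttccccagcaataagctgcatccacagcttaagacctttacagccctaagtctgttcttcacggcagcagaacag
The upstream promoter had 30 CpGs and a CpG observed to expected ratio of 0.965, higher than 92.3% of RefSeq promoters, while the downstream promoter had 2 CpGs and a ratio of 0.172. The upstream promoter held 1 TAATCC on the minus strand, beginning 46 bases before the start. Thrb had 2 entries in the table, which does not say which start each belongs to. In the larger entry H3K4me2 was 97, 57, 102 and 136, beside an H3K27me3 of 19, 15, 14 and 8. In the smaller entry H3K4me2 was 15, 14, 1 and 10, beside an H3K27me3 of 5, 8, 8 and 4. The larger entry was above 97.2% of symbols in H3K4me2 at PN15, and the next cone gene, Gngt2, was above 41.3%. Its H3K4me2 was 1.4-fold higher at PN15 than at E17.5 (1.07 to 1.84), and its H3K27me3 was 0.421 of the E17.5 occupancy (0.159 to 1.01). All 4 of its H3K27me3 values were below the olfactory receptor percentile. The fall of H3K27me3 past 2-fold was lost when the entries were averaged or a pseudocount of 5 was used.

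**Figure D2:**
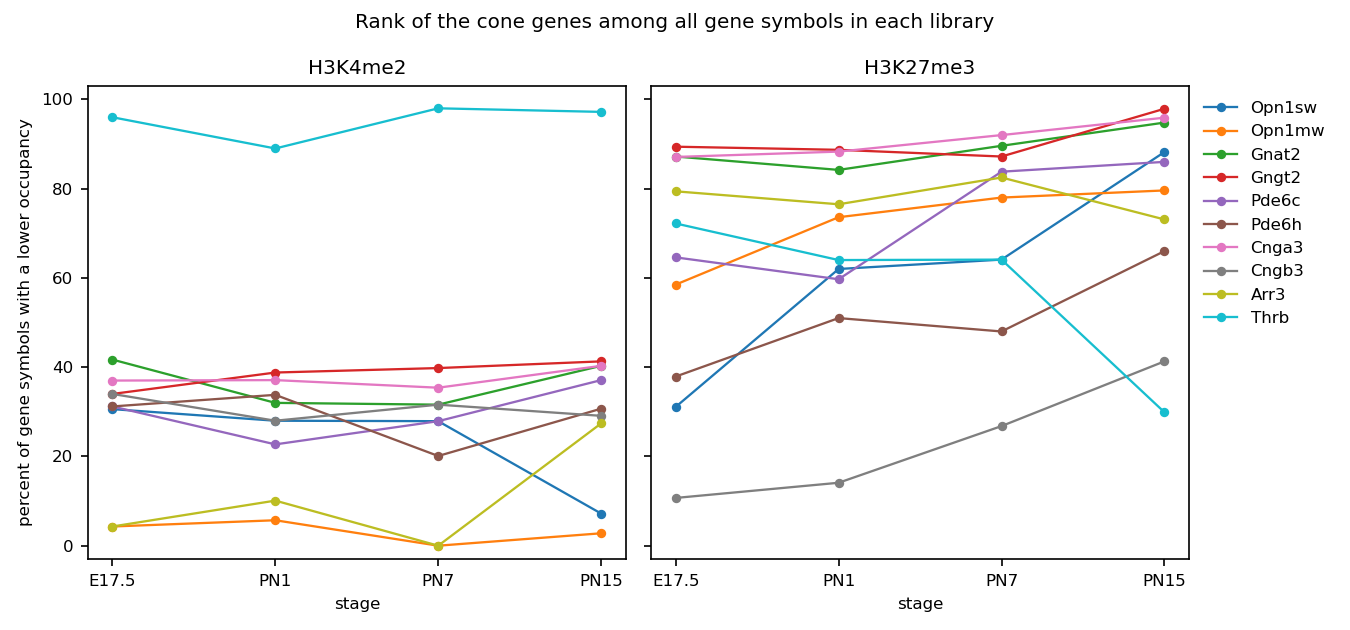
Share of all 20044 gene symbols with a lower occupancy than each cone gene (y axis, percent) at each stage (x axis), for H3K4me2 (left) and H3K27me3 (right), with 1 library per point and a coloured line per gene. In H3K4me2 the larger Thrb entry lies above 89% to 98% of symbols and none of the other 9 genes above more than 41.7%. The smaller Thrb entry, not drawn, lies above 20.1% to 34.7%. In H3K27me3 Opn1sw moves from 31% to 88.2% and the larger Thrb entry crosses downward to 29.9%.

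Ranks do not depend on how a library was scaled. In H3K27me3, Gngt2, Cnga3 and Gnat2 were above 97.9%, 95.9% and 94.8% of symbols at PN15. In H3K4me2 every cone gene except Thrb in its larger entry was below the median symbol in all 4 libraries. The smaller Thrb entry was below it too. Set against the olfactory receptors, 8, 7, 7 and 7 cone genes exceeded the 95th percentile in H3K4me2 from E17.5 to PN15, where 77.2%, 72%, 72.1% and 70.9% of all symbols did. In H3K27me3, 4, 4, 6 and 5 exceeded it, where 24.3%, 24.8%, 24.3% and 19.3% of all symbols did. With the 99th percentile in its place the H3K27me3 counts were 3, 2, 3 and 4.

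The stages at which the marks moved differed between genes. From E17.5 to PN1 no cone gene passed 2-fold in H3K27me3 (3.82% of symbols higher and 5.95% lower). From PN1 to PN7 only Pde6c was higher (8.44% of symbols) and none was lower (9.33%), also without the subtraction of the median (5.2% and 10.7%). From PN7 to PN15 Opn1sw and Gngt2 were higher (12.5% of symbols) and none was lower (8%). The last step had a higher background too, with 31.3% of olfactory receptor symbols more than 2-fold higher.

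In H3K4me2 from E17.5 to PN1, Arr3 was higher (11.7% of symbols) and Gnat2 lower (1.05%). From PN1 to PN7, Thrb was higher in its larger entry (13.7%), and Opn1sw, Opn1mw, Pde6h and Arr3 were lower (26.6%). From PN7 to PN15, Gnat2, Pde6c, Pde6h and Arr3 were higher (12%) and none was lower (12.7%). Counting intervals of the fold included no change for the falls to PN7 at Opn1sw (0.0234 to 1.07), Opn1mw (0 to 2.42) and Arr3 (0 to 1.51) and for the higher value of Arr3 at PN1 (0.287 to 22.1). These intervals are without the subtraction of the median. From PN7 to PN15 the median symbol itself rose 2-fold. The intervals of Pde6h (1.25 to 394) and Arr3 (from 1.44 upward) included that fold, so their rises relative to it were not resolved. With a pseudocount of 5, 1 cone gene in place of 4 was lower from PN1 to PN7, neither Arr3 nor Gnat2 was past 2-fold at PN1, and 2 cone genes in place of 4 were higher from PN7 to PN15. The median of all symbols moved by -0.42, -0.50 and 1.0 in these steps, and the changes are relative to it. As deposited, 0 cone genes were higher and 1 lower in the first step (5.41% and 5.24% of symbols), 0 higher and 6 lower in the second (3.66% and 33.3%), and 5 higher and 0 lower in the third (46.4% and 1.41%). The PN7 library of H3K4me2 stood apart in its low values: 19.5% of its entries were at 0, against 0.362% to 2.52% in the other H3K4me2 libraries, and 82.1% of olfactory receptor symbols were more than 2-fold lower in it than at PN1. All cone genes except Thrb in its larger entry were also at their lowest H3K4me2 in this library, with Opn1sw equal at PN15. The smaller Thrb entry was lowest there too, at 1. The dip at PN7 thus moved with the low values of the library, and the part of this in the dip was not tested.

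The rod counterparts, which are the cascade paralogs and the rod factors Nrl and Nr2e3, gave a different picture in the same libraries. Of 10 rod counterparts compared, 9 were matched in the table (Cngb1 was not), and from E17.5 to PN15 these 9 rose more than 2-fold in H3K4me2, with a median change of 2.99 (5.17% of all symbols were higher and 12.8% lower). In H3K27me3, Gnat1, Pde6b and Pde6g fell more than 2-fold, none of the 9 rose more than 2-fold (13.8% and 10.1% of all symbols), and the median change was -0.49. With a pseudocount of 5 the fall was past 2-fold at 2 genes, without Pde6g. The Pde6g values of 15 at E17.5 and 5 at PN15 were below the olfactory receptor percentile. The combination of H3K27me3 more than 2-fold higher without such a rise in H3K4me2 was found at 5 cone genes, at 0 rod counterparts and at 9.52% of all symbols. The opposite combination was found at 1 cone gene (Arr3), at 9 rod counterparts and at 4.63% of symbols.

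**Figure D3:**
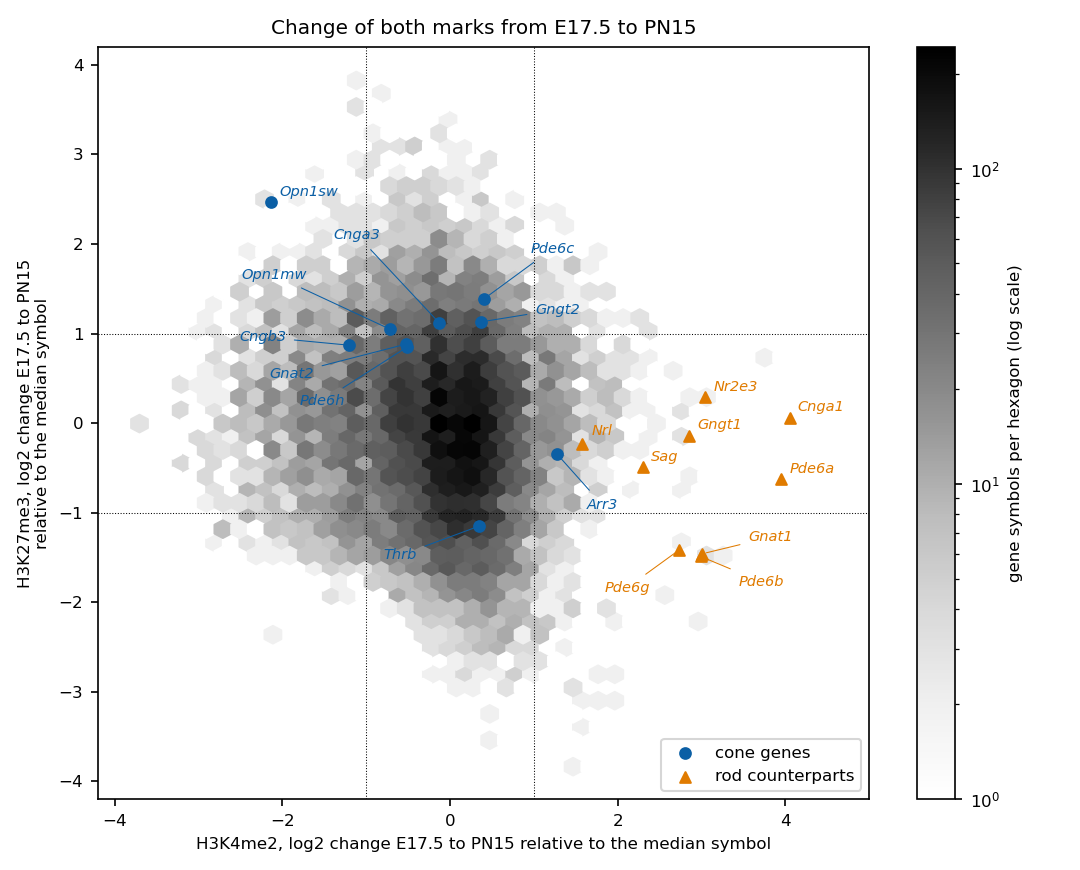
Log2 change from E17.5 to PN15 relative to the median symbol in H3K4me2 (x axis) and H3K27me3 (y axis) for the cone genes (blue circles), their rod counterparts (orange triangles) and all symbols (grey hexagons, log scale, 14 symbols outside the axes), with dotted lines at 2-fold. The rod counterparts lie to the right of the 2-fold line, and of the cone genes only Arr3 does, while 5 cone genes lie above the upper 2-fold line.

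Pair by pair at PN15, the rod gene had more H3K4me2 than its cone paralog in every cascade pair compared. Cnga3 had 24 against 126 at Cnga1, Pde6c had 18 against 118 at Pde6a and 95 at Pde6b, and Gnat2 had 24 against 105 at Gnat1. The remaining pairs were 26 at Gngt2 against 78 at Gngt1, 9 at Pde6h against 79 at Pde6g, and 7 at Arr3 against 53 at Sag, the rod arrestin. The smallest ratio of these pairs was 3-fold, at Gngt1 and Gngt2.

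H3K27me3 was ordered the other way at PN15 in the same pairs. Gngt2 had 148 against 9 at Gngt1, Cnga3 had 110 against 24 at Cnga1 and Gnat2 had 95 against 15 at Gnat1. Pde6c had 41 against 10 at both Pde6a and Pde6b. The gap was smallest in occupancy at Pde6h with 17 against 5 at Pde6g, and at Arr3 with 21 against 4 at Sag. Both genes of each of these pairs were below the olfactory receptor percentile of 29, so this order lies within the background range. Thrb differed from the cascade genes in its larger entry, whose H3K4me2 of 136 stood beside 116 at Nrl and 107 at Nr2e3. Nrl and Nr2e3 are the factors that direct rod identity. The H3K27me3 of this entry was 8, beside 16 and 10. The smaller Thrb entry had 10 in H3K4me2, below both rod factors as in the cascade pairs, and 4 in H3K27me3.

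**Figure D4:**
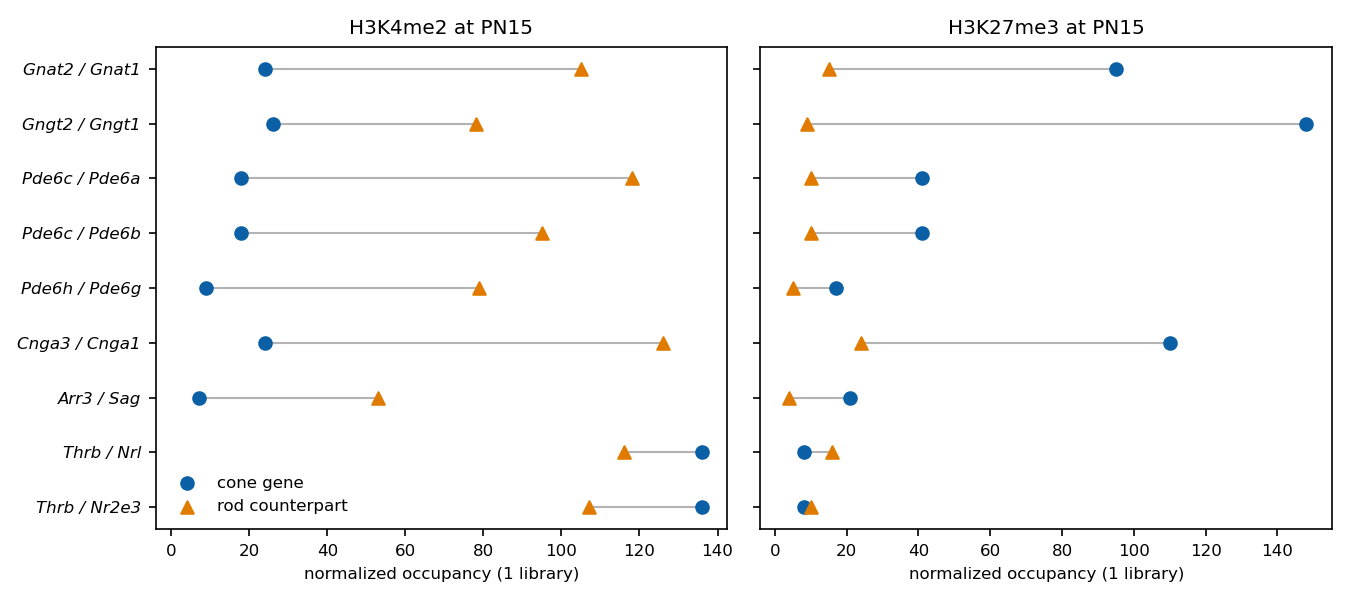
Normalized occupancy (x axis, linear, 1 library) of H3K4me2 (left) and H3K27me3 (right) at PN15 for the cone genes compared (blue circles) and their rod counterparts (orange triangles), joined by a grey line, with 1 pair per row. In each cascade pair shown the rod gene has more H3K4me2 and the cone gene more H3K27me3. The Thrb pairs, drawn with its larger entry, are the exception. The smaller Thrb entry, not drawn, has 10 in H3K4me2 and 4 in H3K27me3.

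At E17.5 the cone gene had the higher H3K4me2 value in the cascade pairs compared, except Arr3 with 2 against 9 at Sag, though not every gap was larger than the counting error. Gnat2 had 32 against 11 at Gnat1, Cnga3 had 24 against 6 at Cnga1, Gngt2 had 18 against 9 at Gngt1, Pde6c had 12 against 6 at Pde6a and 10 at Pde6b, and Pde6h had 12 against 10 at Pde6g. The values at Pde6b and Pde6g lay within the counting intervals of Pde6c (6.2 to 21) and Pde6h (6.2 to 21). Their order was thus not resolved. Nor was that of Pde6c and Pde6a, since the interval at an occupancy of 6 is 2.2 to 13.1. A fold from 18 to 9 has an interval of 0.198 to 1.17, and one from 9 to 2 an interval of 0.0234 to 1.07. Both include no change, so the Gngt2 and Arr3 pairs were not resolved either. The pairs were mixed in H3K27me3. There Gngt2 had 67 against 10 at Gngt1, Cnga3 had 50 against 23 at Cnga1 and Arr3 had 27 against 6 at Sag, all in the order of PN15. Gnat2 had 51 against 43 at Gnat1, a narrow gap in that order, while Pde6c had 15 against 16 at Pde6a, about the same, and 30 at Pde6b, and Pde6h had 9 against 15 at Pde6g. Thus the transducins Gnat2 and Gnat1 lay close in H3K27me3 at E17.5 and apart at PN15, with 95 (76.9 to 116) at Gnat2 and 15 at Gnat1 at PN15.

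A list of 14 other genes, most of them of the cascade and shared by cones and rods, with Rxrg and others known from cones, was described in the same way. From E17.5 to PN15, 8 of the 14 were more than 2-fold higher in H3K4me2 and none was lower, with a median change of 1.71 (5.17% and 12.8% of all symbols). Rcvrn, the calcium sensor recoverin, went from 1 to 134, Grk1, the opsin kinase, from 11 to 65, and Gnb3, the β subunit of cone transducin, from 25 to 69. In H3K27me3 none of the 14 was more than 2-fold higher and 3 were lower, namely Gucy2e, Rgs9bp and Pdc, with a median change of -0.61 (10.1% and 13.8% of all symbols). Pdc, the phosphoprotein phosducin, went from 10 to 3, below the olfactory receptor percentile, and its fold interval of 0.0531 to 1.17 includes no change. Gucy2e, a guanylate cyclase of photoreceptors, went from 72 to 17 and Rgs9bp, the anchor of the transducin shutoff complex, from 129 to 19. Gnb3, whose product joins Gnat2 and Gngt2 in cone transducin, had 10, 13, 5 and 9 for H3K27me3, beside 51 to 95 at Gnat2 and 67 to 148 at Gngt2 at the ends of the time course.

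Of 12 regulators of cone fate, 2 were more than 2-fold higher in H3K4me2 (Crx and Pias3) and 2 lower (Nr2f1 and Nr2f2), and 2 were higher in H3K27me3 (Nr2f1 and Meis1) and 2 lower (Otx2 and Neurod1). Of all symbols, 5.17% were higher and 12.8% lower in H3K4me2, and 10.1% and 13.8% in H3K27me3. The fall at Nr2f1 in H3K4me2 was -1.07 relative to the median symbol and -0.93 as deposited, which is within 2-fold. Meis1 went from 5 to 12 in H3K27me3, below the olfactory receptor percentile at both ends, with an interval of the fold of 0.787 to 8.7 that includes no change, and its call was lost with a pseudocount of 5. Crx, the photoreceptor homeodomain factor, had 20, 24, 21 and 158 for H3K4me2. Nr2f1, an orphan nuclear receptor that patterns cone opsins across the retina, had 4, 6, 15 and 76 for H3K27me3. Neurod1, which sustains Thrb in cones, had 186, 230, 58 and 24 for H3K27me3, and Otx2 had 212, 289, 130 and 46. From the list of 14 genes above, Rxrg, the partner receptor of Thrb in cones, had 37, 26, 36 and 36 for H3K27me3 and 51, 32, 40 and 29 for H3K4me2.

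The genes closest to each cone gene over the 8 values were found by Euclidean distance in log2(occupancy + 1) among all symbols. Nearest to Opn1sw was Parvg, at a distance of 0.813, with 12, 16, 15 and 73 for H3K27me3 and 11, 10, 2 and 2 for H3K4me2, followed by 4930579J09Rik (1.17) and Ccl17 (1.21). Nearest to Opn1mw were Trim31 (0.746), Svs6 (0.753) and S100a8 (0.823). Nearest to Gngt2 after Abi3 (0.235), which shares its window, was Cnga3 (1.33), ahead of Gng13 (1.34). Cnga3 was also the third nearest to Gnat2 (1.49), after Trpa1 (1.29) and Aldh1b1 (1.43), and its own nearest symbols were Abi3 (1.22), Trpm3 (1.22) and Crispld2 (1.24). These 3 genes, Gnat2, Gngt2 and Cnga3, were the ones with the most H3K27me3 and with low but measurable H3K4me2.

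Nearest to Pde6c were Lrrc43 (1.29), Hspb3 (1.35) and Mybph (1.38), and nearest to Pde6h were Fam26e (0.74), 2310043J07Rik (0.845) and Pla2g3 (0.877). Nearest to Cngb3 were 1700040L02Rik (0.801), Ddc8 (0.941) and Nanos3 (1.01), and nearest to Arr3 were Otud6a (0.595), Kcnj15 (0.773) and Lcn6 (0.818). Thrb had Vasp (0.662), Otud1 (0.691) and Slc38a3 (0.716) nearest to it. Except for Cnga3, no cone gene was among the 3 symbols nearest to another.

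In the 9 RefSeq promoters of 7 cone genes that were matched, 4 promoters held a TAATCC or TAATCT core, those of Opn1sw, Arr3, Gnat2 and the upstream Thrb start. Of all 32544 RefSeq promoters, 12.9% held at least 1 of these cores. The promoters of Cnga3, Pde6h and Opn1mw and the downstream Thrb start held neither. The log2 changes in H3K27me3 from E17.5 to PN15 were 2.47, -0.35 and 0.88 at Opn1sw, Arr3 and Gnat2, which held a core, and 1.12, 0.85 and 1.05 at Cnga3, Pde6h and Opn1mw, which did not. At Thrb the changes were -1.15 and -0.26 in its larger and smaller entries, and neither could be tied to the start with the core. Gngt2, Pde6c and Cngb3 had no matched promoter. A search of the genome with each 5 kb window found no near-identical copy of any of them.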

How the data were processed

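H3K4me2 and H3K27me3 ChIP-Seq libraries of mouse retina were analysed, 1 for each mark at each of 4 stages. The authors mapped reads with Bowtie 0.12.4 to mm9, removed reads with several positions and summed read midpoints within 2.5 kb of RefSeq TSS. The deposited values are scores, these sums normalized by the authors to all mapped reads and rounded to whole numbers, so no count model was fitted, and intervals treat a value as a number of reads. Depth per library is not held by the table. The sum over entries was 590366 to 1200594. No whole number below 110 was missing from any library, so a read was worth an occupancy of 1.01 at most. In its column name the PN7 library of H3K27me3 has an added letter b. Of the 10 samples, 2 have no column.

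Occupancies were compared as log2(value + 1) minus the median change of all symbols, and a change past 2-fold was counted. Fold intervals were exact (Clopper-Pearson on a pair of Poisson counts). Settings tried were no centring, a pseudocount of 5, the mean over entries, a minimum of 10, 1.5-fold and the 99th olfactory percentile. Genes named were the 10 cone genes, their rod counterparts, the lists of cascade genes and regulators, genes with a TSS within 5 kb, and the 3 symbols nearest to each cone gene. A small number of genes of the planned lists are not reported here and enter none of the list counts. Members and lists were chosen with earlier results of these data known. Gene coordinates are from the mm9 annotation, and promoters are from RefSeq (GRCm38.p6). Windows were searched for copies with minimap2 2.31-r1302 (99% identity over 50% of the window). Python 3.11.15, pandas 2.3.3, numpy 2.4.6, scipy 1.17.1 and matplotlib 3.10.9 were used.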

Additional observations from a re-analysis of the deposited data

How the results depend on the processing

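The relative log2 changes of the 10 cone genes from E17.5 to PN15 were run under 4 alternatives (80 values). Each moved by less than the counting error, though H3K4me2 at Cnga3 went from -0.13 to 0.00 as deposited. Some of these values could hardly move. H3K27me3 as deposited equals the relative change, since its median change was 0.00. Averaging entries leaves the values of a gene with 1 entry as they were. Of 164 values of counts, 135 stayed within 1.5 times the value reported and 29 did not. Among the cone genes from E17.5 to PN15, a pseudocount of 5 gave 0 higher and 1 lower in H3K4me2 and 4 higher (without Opn1mw) and 0 lower in H3K27me3, the mean over entries gave 0 lower in H3K27me3, and 1.5-fold gave 8 higher in H3K27me3. From E17.5 to PN1 in H3K4me2, 0 were higher as deposited and with a pseudocount of 5, 2 at 1.5-fold, and 0 were lower with a pseudocount of 5. From PN1 to PN7 in H3K4me2, 0 were higher as deposited and 1 was lower with a pseudocount of 5. From PN7 to PN15 in H3K4me2, 2 were higher with a pseudocount of 5 and 2 lower at 1.5-fold. At 1.5-fold in H3K27me3, 2 were higher from E17.5 to PN1, 4 from PN1 to PN7 and 4 from PN7 to PN15, with 2 lower in the last step. With the 99th olfactory percentile, 2 cone genes exceeded the background in H3K27me3 at PN1 and 3 at PN7. Of the 14 other genes, 1 was lower in H3K4me2 at 1.5-fold, 1 was higher in H3K27me3 at 1.5-fold and with a minimum of 10, and 8 were lower at 1.5-fold. Of the 12 regulators, 4 were higher and 4 lower in H3K4me2 at 1.5-fold, 1 was lower as deposited and with the mean over entries, 1 was higher in H3K27me3 with a pseudocount of 5, and 5 were lower at 1.5-fold. The causes were not tested, beyond the lower fold or larger pseudocount itself. No paired analysis was possible because each mark and stage has 1 library. Counting intervals span more than 2-fold at an occupancy of 28 (18.6 to 40.5) and are wider at lower ones. This limits what can be said of H3K4me2 at every cone gene, apart from the larger Thrb entry. It includes the falls called at Opn1sw (2 at PN15, interval 0.242 to 7.22) and Cngb3 (8 at PN15). In H3K27me3 the limit holds at Cngb3, Pde6h, Thrb and Opn1mw at every stage and at Arr3 at every stage but PN7. It also holds at Opn1sw before PN15 and at Pde6c before PN7, the stages from which their rises are measured.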
